A study of Mus musculus with 12 samples.

Results

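The 55 genes described here encode proteins that carry a cell through mitosis: the CDK1 and cyclin engine, the mitotic kinases, the anaphase-promoting complex, the spindle checkpoint, kinetochore and spindle proteins, the cytokinesis machinery, condensin, and chromosome and nuclear proteins of dividing cells. They were taken from a list drawn up by function, but with earlier results of these data known. All 55 matched 1 gene each among the 55450 genes of the table and passed the filter on low counts. The cells are donor-derived progenitors from mouse bone marrow, negative for lineage markers and positive for the receptor Kit, sorted from recipients of a competitive transplant, in which donor and competitor marrow share a host. Their RNA was sequenced after depletion of ribosomal RNA. The 12 libraries carry 4 genotype labels with 3 libraries each: WT, Tet2KO (loss of Tet2, a DNA dioxygenase), Id1KO (loss of Id1, an inhibitor of helix-loop-helix transcription factors) and dKO (loss of both). Alleles, ages, time after transplant and the number of mice were not given in the sources used here. The comparisons ask how the mitotic transcripts differ with each label and whether the Id1 label matters in the presence of the Tet2 label.

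Several facts about the libraries bear on every value below. In the titles, 1 sample number is shared by the 3 libraries of each genotype, so they may be repeats of 1 cell sample. The p-values then measure only the spread between these libraries. Tet2 stood at 97.6 to 102 CPM (counts scaled to the size of the library) in the libraries labelled WT and at 127 to 132 CPM in those labelled Tet2KO. Id1 stood at 1.24 to 1.76 CPM in WT, 3.61 to 4.35 in Tet2KO, 3.69 to 4.35 in Id1KO and 3.35 to 4.25 in dKO. It was thus higher than in WT under every other label, with or without the Id1-null label. Its log2 fold change in dKO against Tet2KO was 0.03 (edgeR adjusted p 0.921). Neither targeted gene was lower under its null label, so the genotype names below are those of the labels. A transcript can persist where part of a gene is deleted, and the deleted parts were not given in the sources used here. Totals ran from 15706368 to 19959153 counts. Within a genotype libraries differed by 1.18 to 2.10 times the squared difference that sampling gives, against 2.89 to 5.94 times between genotypes. The spread beyond sampling within a genotype, edgeR's common biological coefficient of variation, was only 0.031. Kit stood at 314 to 377 CPM, while Cd3e and Ly6g, genes of T cells and neutrophils, had at most 2 counts in a library. Xist, a transcript of female cells, stood at 252 to 272 CPM in WT and at 9.89 to 69.0 CPM under the other labels, and the Y-linked Ddx3y at 46.1 to 50.4 CPM in WT and 79.4 to 98.5 CPM under the others. The part of this difference in the results was not tested.

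Transcripts of mitotic genes are most abundant in G2 and M phase. In a bulk sample their summed level thus follows the share of cells near division as well as the level in each cell. Fewer cells of a kind and less RNA per cell cannot be told apart in such libraries. Many of these genes are known targets of the DREAM and MYB-MuvB complexes and of FOXM1, which act through a promoter element called the cell cycle genes homology region (CHR), often with CCAAT boxes bound by NF-Y nearby. In bone marrow the Kit-positive fraction is rich in cycling erythroid and myeloid progenitors, while the rare stem cells in it are mostly quiescent.

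The promoters show what the genes share in sequence. RefSeq windows of 300 bases (250 before and 50 from the window's start base, GRCm38.p6) were at hand for 45 of the 55 genes. That base, called the start here, equalled the RefSeq gene start in 19827 of all 32851 windows. It can also differ from the GENCODE gene ends printed below, as in Cdca8, Cenpa, Cdk1 and Hmmr. The CHR letters, TTTGAA or TTCGAA on either strand, occurred in the windows of 38 of these 45 genes, which is 84.4%, against 21.7% of all 27025 genes with a window. CCAAT on either strand occurred in 77.8% of the 45 genes against 41.1% of all. The promoters of 8 genes, chosen by role, are shown from 120 bases before to 30 after the start, with CHR letters and CCAAT boxes in capitals. They cover Cdk1 chr10:69352883-69353032 (minus strand), Plk1 chr7:122159315-122159464 (plus strand), Cdc20 chr4:118437314-118437463 (minus strand), Bub1 chr2:127831830-127831979 (minus strand), Cdca8 chr4:124936888-124937037 (minus strand), Cenpa chr5:30666766-30666915 (plus strand), Kif11 chr19:37376262-37376411 (plus strand) and Hmmr chr11:40733408-40733557 (minus strand).
Cdk1: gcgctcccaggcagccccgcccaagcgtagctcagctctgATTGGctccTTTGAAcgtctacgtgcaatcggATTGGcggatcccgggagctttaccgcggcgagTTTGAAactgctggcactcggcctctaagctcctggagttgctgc
Plk1: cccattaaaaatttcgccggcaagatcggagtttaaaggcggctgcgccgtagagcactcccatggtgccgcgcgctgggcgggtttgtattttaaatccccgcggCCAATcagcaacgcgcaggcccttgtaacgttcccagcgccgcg
Cdc20: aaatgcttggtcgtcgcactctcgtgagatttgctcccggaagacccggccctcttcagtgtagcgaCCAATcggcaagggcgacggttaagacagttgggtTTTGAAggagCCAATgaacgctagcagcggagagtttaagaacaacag
Bub1: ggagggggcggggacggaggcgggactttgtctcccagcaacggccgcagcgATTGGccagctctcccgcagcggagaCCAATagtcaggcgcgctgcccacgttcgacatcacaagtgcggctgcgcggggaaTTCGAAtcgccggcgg
Cdca8: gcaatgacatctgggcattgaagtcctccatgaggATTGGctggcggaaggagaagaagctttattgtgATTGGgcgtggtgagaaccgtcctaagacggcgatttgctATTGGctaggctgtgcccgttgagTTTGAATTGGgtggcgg
Cenpa: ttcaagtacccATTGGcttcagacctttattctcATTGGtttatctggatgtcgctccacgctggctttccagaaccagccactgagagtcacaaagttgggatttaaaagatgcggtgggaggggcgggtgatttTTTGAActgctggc
Kif11: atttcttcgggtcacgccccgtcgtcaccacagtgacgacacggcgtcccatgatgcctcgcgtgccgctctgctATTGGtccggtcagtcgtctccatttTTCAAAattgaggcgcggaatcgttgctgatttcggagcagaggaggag
Hmmr: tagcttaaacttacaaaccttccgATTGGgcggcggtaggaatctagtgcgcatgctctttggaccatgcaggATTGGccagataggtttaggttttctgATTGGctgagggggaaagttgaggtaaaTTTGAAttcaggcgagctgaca
In the Cdk1, Cdc20 and Kif11 stretches a CHR match lay just before the window's start base, beginning 15, 18 and 19 bases upstream of it. In Bub1, Cdca8, Cenpa and Hmmr it began at base 9 to 17, counted from the window's start base. The CHR letters of Plk1 began at base 31, just past the stretch shown. Letters that match are a description of these windows and not evidence that a factor binds there.

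Within the windows both kinds of letters had a preferred place. Of 56 CHR matches in the genes' 48 windows, 69.6% began within 50 bases of the start, compared with 25.2% of the matches in all 32851 windows. The bin with most CHR matches held the first 25 bases from the start base, with 35.4 matches per 100 windows. CCAAT matches crowded into the 100 bases before the start, with 37.5 per 100 windows in the last 25 bases. The CHR letters were missing from the windows of Birc5, Ccnb1, Cenpe, Mad2l1, Ncaph, Nuf2 and Nusap1, and no match says only that these letters are not in this window. The median log2 fold change in Id1KO against WT was 0.14 over the 38 genes with CHR letters and 0.09 over the 7 without, while in dKO against Tet2KO it was 0.15 and 0.17. Among 672 other tested genes with both CHR and CCAAT letters in a window, the medians in these comparisons were 0.00 and 0.01.

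**Figure D1:**
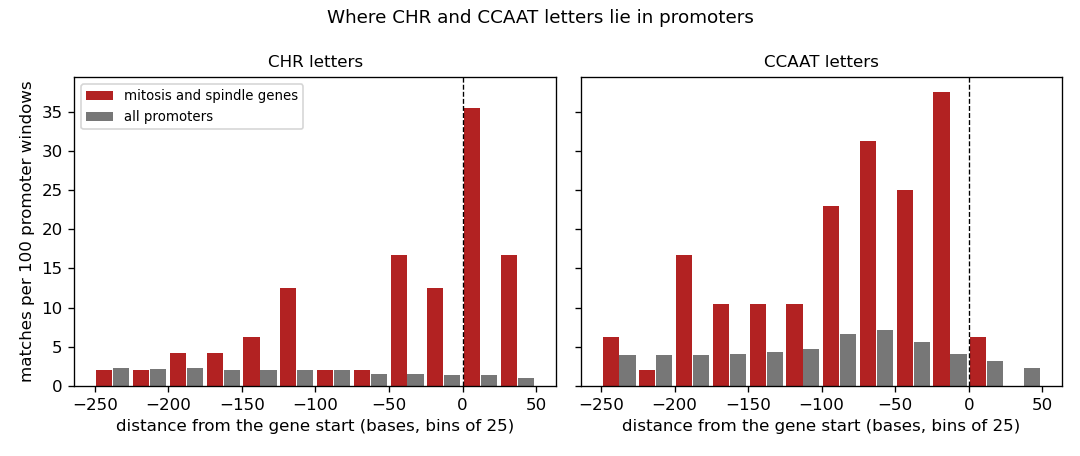
Matches per 100 promoter windows to CHR (left) and CCAAT (right) letters, in bins of 25 bases. Distance is that of the match's first base from the window's start base, which the axis calls the gene start. Red bars are the 48 windows of the mitosis and spindle genes and grey bars all 32851 windows; CHR matches of the red set peak at 35.4 per 100 windows just after the start.

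Levels differed widely among the genes, and all were well covered, with 245 counts or more in every library. Per kilobase of merged exons, Hmgb2, a chromatin protein, was the most abundant (166 CPM per kb), ahead of the proliferation antigen Mki67 (98.7) and the topoisomerase Top2a (85.5). The CDK1-activating phosphatases Cdc25b (5.07) and Cdc25c (3.23) were lowest on this scale. Summed over the 55 genes, the level was 7524 to 7585 CPM in the libraries labelled WT and 7605 to 7656 CPM in Tet2KO. It was 7993 to 8163 CPM in Id1KO and 8246 to 8459 CPM in dKO. The 6 libraries that carry the Id1-null label, alone or with Tet2KO, were thus all above the other 6.

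The shift was shared by most of the genes. Each gene's log2 CPM was set against its own mean over the 12 libraries. The median of this value over the 55 genes was -0.08 to -0.05 in the WT libraries, -0.08 to -0.06 in Tet2KO, 0.04 to 0.07 in Id1KO and 0.07 to 0.09 in dKO, while the median over all genes tested was at most 0.01 in any library. Between 38 and 53 genes were above their own mean in each Id1-null library, against 4 to 12 in each of the others. In 31 of the 55 genes all 6 Id1-null libraries were above all 6 others, a pattern held by 2.02% of all genes tested. None of the 55 showed the reverse, which 2.57% of all genes did. The mean was highest in dKO for 36 genes and in Id1KO for 17, and lowest in WT for 27 and in Tet2KO for 25. Neither this order nor the number above their own mean was counted over all genes.

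**Figure D2:**
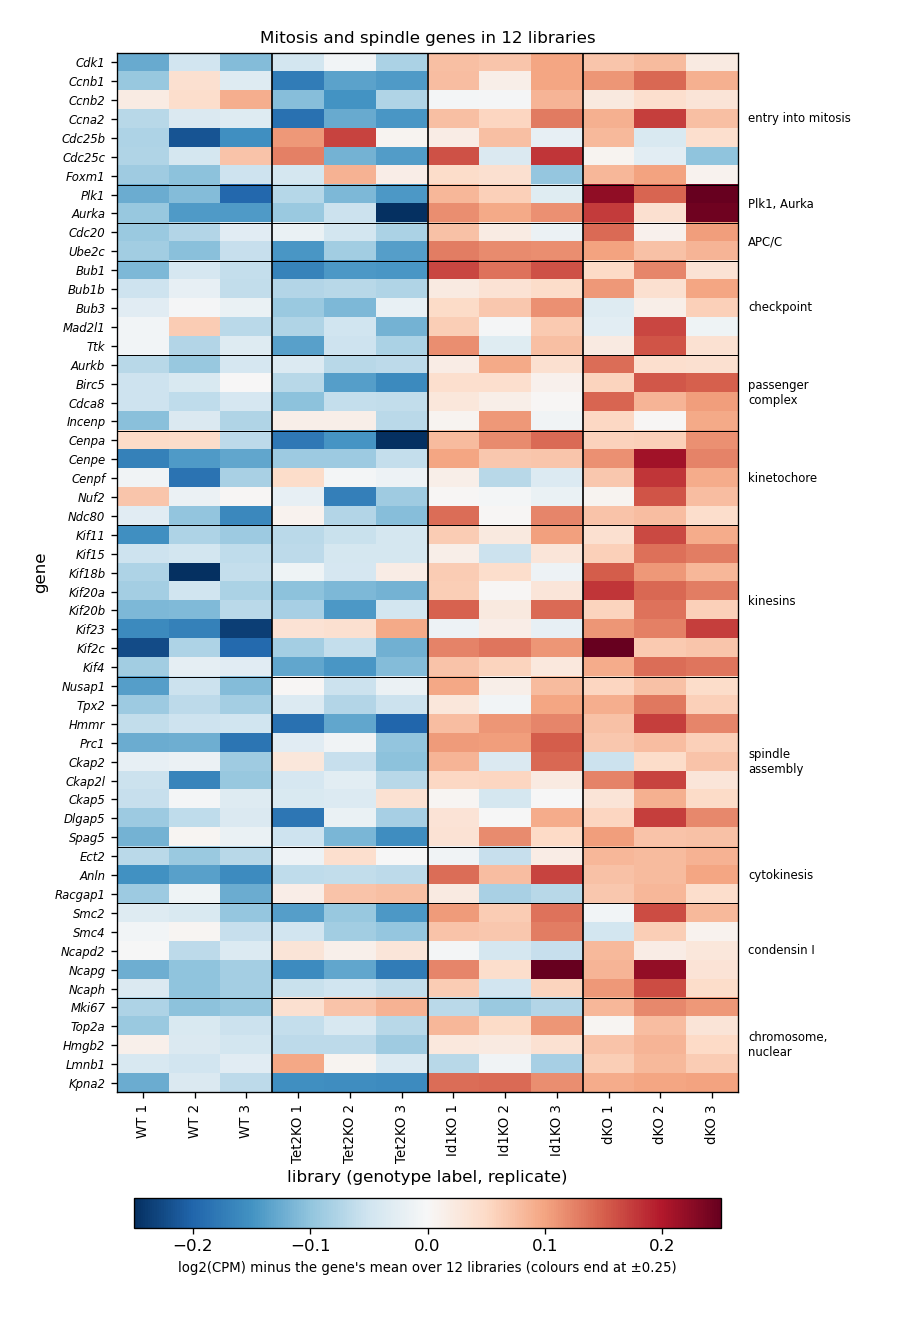
Log2 CPM of each of the 55 genes (rows, by role) in each of the 12 libraries (columns), minus the gene's mean over the 12 libraries, with red above and blue below the mean and colours ending at ±0.25. Most rows turn from blue in WT and Tet2KO to red in Id1KO and dKO; Mki67 instead is red under the Tet2KO and dKO labels.

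Each comparison was tested across 14346 genes with edgeR's quasi-likelihood model, and a gene is called where the adjusted p is under 0.05. In Id1KO against WT, 29 of the 55 genes were higher and none lower, with a median log2 fold change of 0.11, against a background of 15.0% of all genes called (7.26% higher and 7.77% lower). In dKO against Tet2KO, the same change of label on the Tet2KO background, 38 were higher and none lower, with a median of 0.15 and a background of 26.4% (13.1% higher and 13.4% lower). In dKO against WT, 44 were higher and none lower, with a median of 0.16 and a background of 19.2% (10.2% higher and 8.97% lower). The Tet2 label gave a different picture: in Tet2KO against WT 6 were higher and 6 lower, with a median of 0.00 and a background of 32.8% (16.6% higher and 16.2% lower), so fewer were called than among all genes. In dKO against Id1KO, 10 were higher and none lower, with a median of 0.04 and a background of 19.3% (10.6% higher and 8.7% lower), so the share called is close to the background. Without dKO replicate 2 it was 8 higher and 2 lower, and with no filter 8 higher and 1 lower. Without Id1KO replicate 2 the count was 5, and without dKO replicate 3 it was 6. Low counts limit calls less among the 8051 genes with a mean CPM within the range of the 55. Of these, 10.4% were called higher and 10.1% lower in Id1KO against WT, and 18.4% and 17.4% in dKO against Tet2KO. In either direction, 41.9% were called in Tet2KO against WT, 22.1% in dKO against WT and 23.1% in dKO against Id1KO.

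The differences were small. The largest fold among the 55 genes was 1.28 (Plk1 in dKO against WT), and none was called in any comparison when the test asked for a change beyond 1.2-fold (edgeR's glmTreat). Of all genes, that test called 140 (Id1KO against WT) to 769 (Tet2KO against WT). At an unadjusted p under 0.05 it gave 3 of the 55 genes in dKO against WT, 1 in dKO against Tet2KO and 0 in the others. The 3 libraries of a genotype were also summed, which treats each genotype as 1 sample, and additive effects of both labels were fitted. The error term there is the departure of the sums from additive effects, not a spread between animals. edgeR called 0 of the 55 genes for either label, against 7 of all genes tested for the Id1 label and 232 for the Tet2 label. At an unadjusted p under 0.05 there were 27 of the 55 for the Id1 label, against 9.95% of all genes. For the Tet2 label there were 2, against 15.5%. The fitted Id1 effect in that model was positive for all 55 genes, with a median of 0.13, and the lowest adjusted p was 0.364. The Id1-label contrasts in the 2 backgrounds share no library. Of the genes, 24 were called higher in both, which is 82.8% of the 29 and 63.2% of the 38, and 2.04% of all genes tested were. None was lower in both, where 3.26% of all genes were. For the Tet2 label 3 genes (Kif23, Mki67 and Racgap1) were called higher in both backgrounds and none lower, against 6.21% and 3.2% of all genes tested. In Kif23, Mki67 and Ncapd2 all 6 Tet2-null libraries were above the other 6, which 5.33% of all genes showed, and in none were they below (3.23%).

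**Figure D3:**
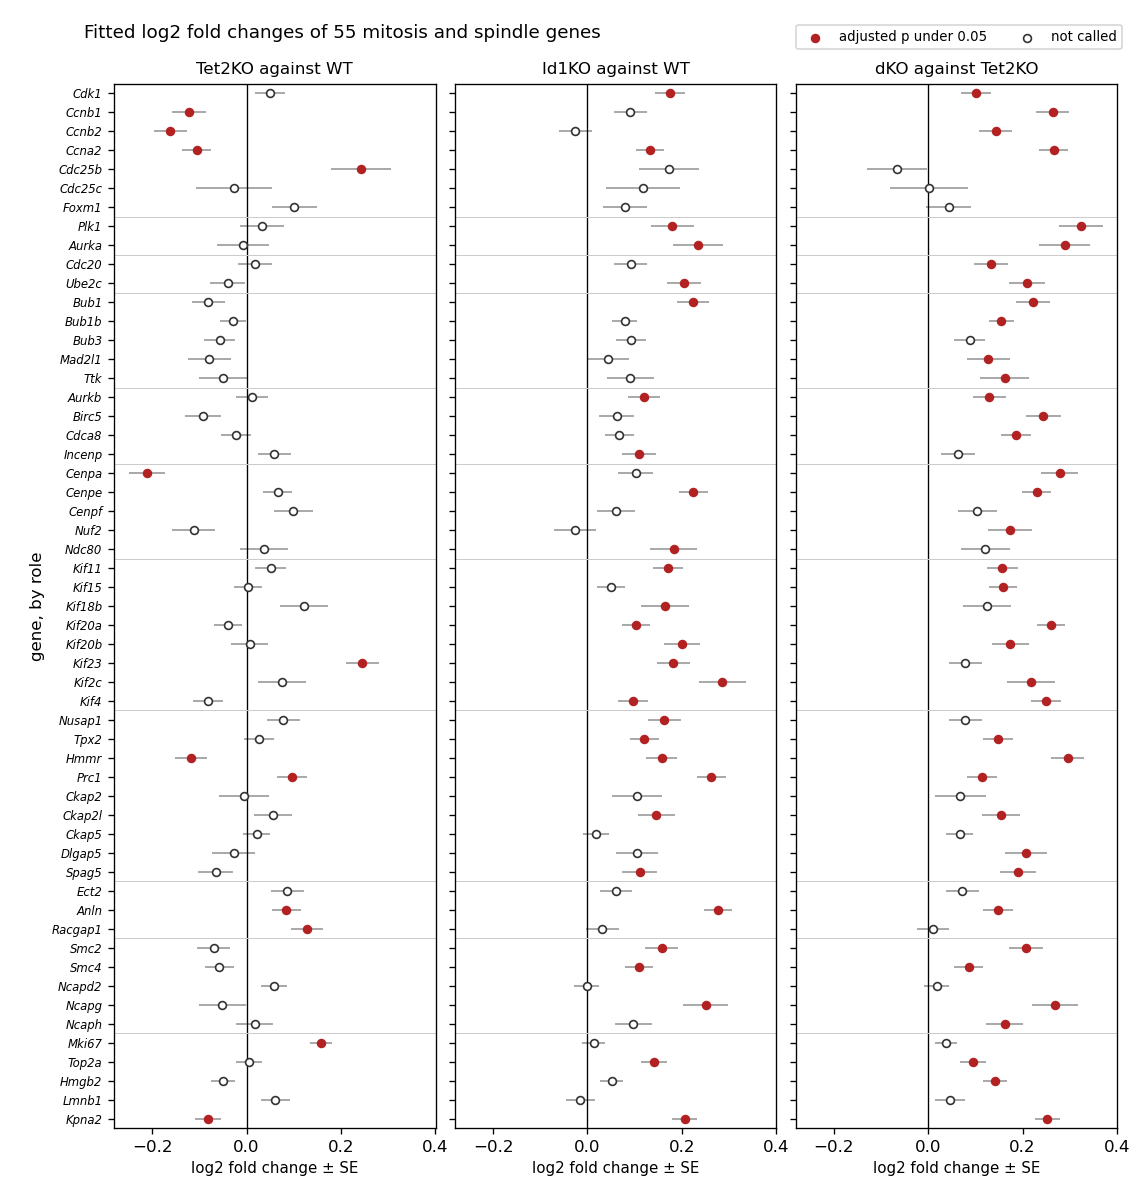
Fitted log2 fold change ± SE of each of the 55 genes, by role, in Tet2KO against WT (left), Id1KO against WT (middle) and dKO against Tet2KO (right), with filled points where the adjusted p is under 0.05. Calls stand on both sides of 0 in the left panel (6 and 6) and only to the right of it in the others (29 and 38).

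The engine of mitotic entry is CDK1 with its cyclins. Cdk1 (ENSMUSG00000019942.13, chromosome 10, 69335146 to 69352938), the kinase itself, stood at 99.1, 105 and 100.3 CPM in the libraries labelled WT, 105, 108 and 102 in Tet2KO, 114, 113 and 116 in Id1KO and 113, 114 and 109.9 in dKO. All Id1KO and dKO libraries were above all WT and Tet2KO libraries. Positions follow GENCODE M21 (GRCm38). The log2 fold change of Cdk1 was 0.18 ± 0.031 (SE) in Id1KO against WT (edgeR adjusted p 0.000589) and 0.10 ± 0.032 in dKO against Tet2KO (adjusted p 0.0223). The latter call was lost when Tet2KO replicate 1, Tet2KO replicate 3, dKO replicate 1 or dKO replicate 2 was left out, at an adjusted p of up to 0.12.

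The cyclins that bind CDK1 differed from it under the Tet2KO label. Ccnb1 (ENSMUSG00000041431.16, chromosome 13, 100778650 to 100786570), cyclin B1, stood at 108, 118 and 113 CPM in the libraries labelled WT, 102, 105 and 104 in Tet2KO, 121, 116 and 123 in Id1KO and 124, 127 and 122 in dKO. Tet2KO was lowest without overlap with WT, the WT libraries reached into the range of Id1KO, and dKO was above WT. Its log2 fold change was -0.12 ± 0.035 in Tet2KO against WT (edgeR adjusted p 0.0111), a call lost when WT replicate 2 was left out, at an adjusted p of up to 0.103. It was 0.09 ± 0.034 in Id1KO against WT (adjusted p 0.0809) and 0.26 ± 0.035 in dKO against Tet2KO (adjusted p 1.57e-05). Ccnb2 (ENSMUSG00000032218.7, chromosome 9, 70407692 to 70421547), cyclin B2, stood at 82.7, 84.0 and 86.8 CPM in the libraries labelled WT, 75.7, 73.4 and 77.3 in Tet2KO, 81.2, 81.3 and 86.5 in Id1KO and 82.9, 83.9 and 83.3 in dKO. Its lowest libraries were those labelled Tet2KO, and the other labels overlapped. Ccnb2 fell in Tet2KO against WT by a log2 fold change of -0.16 ± 0.035 (edgeR adjusted p 0.00132) and was the 1 gene of the 55 with its highest mean in WT. Ccna2 (ENSMUSG00000027715.9, chromosome 3, 36564865 to 36572150), cyclin A2, which serves both S phase and mitotic entry, stood at 183, 188 and 188 CPM in the libraries labelled WT, 169, 176 and 174 in Tet2KO, 203, 199.9 and 211 in Id1KO and 205, 217 and 203 in dKO. The groups were ordered Tet2KO, WT, and then Id1KO with dKO, with overlap between the last pair alone. Ccna2 rose by 0.13 ± 0.031 in Id1KO against WT (edgeR adjusted p 0.00538) and by 0.27 ± 0.031 in dKO against Tet2KO (adjusted p 3.29e-06). Ccna2 shares 510 bp of exons with Exosc9 on the opposite strand.

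Upstream of the cyclins stand the CDC25 phosphatases and the factor FOXM1, which activates many of these genes. Cdc25b (ENSMUSG00000027330.16, chromosome 2, 131186949 to 131198497), which removes inhibitory phosphate from CDK1, stood at 17.9, 16.2 and 17.0 CPM in the libraries labelled WT, 20.3, 21.2 and 19.0 in Tet2KO, 19.1, 19.9 and 18.6 in Id1KO and 19.97, 18.4 and 19.4 in dKO. The WT libraries were below all others, and the remaining groups overlapped. It rose in Tet2KO against WT by 0.24 ± 0.063 on the log2 scale (edgeR adjusted p 0.00585) and stood at -0.07 ± 0.064 in dKO against Tet2KO (adjusted p 0.498). Foxm1 (ENSMUSG00000001517.14, chromosome 6, 128362967 to 128376146) stood at 46.9, 46.5 and 48.1 CPM in the libraries labelled WT, 48.3, 53.0 and 50.5 in Tet2KO, 51.5, 51.3 and 46.7 in Id1KO and 52.8, 53.5 and 50.2 in dKO. Every label overlapped with another, although all Tet2KO and dKO libraries were above all WT libraries. Foxm1 was called in 1 of the 5 pairwise comparisons, dKO against WT (0.14 ± 0.048, edgeR adjusted p 0.0377). That call was lost when any 1 of 5 libraries was left out, at an adjusted p of up to 0.112. Cdc25c, at 15.4 to 17.0 CPM by group, was called in none.

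The mitotic kinases Plk1, which drives entry, spindle assembly and cytokinesis, and Aurka, which matures centrosomes, had the largest differences between dKO and Tet2KO together with Hmmr. Plk1 (ENSMUSG00000030867.7, chromosome 7, 122159439 to 122169873) stood at 45.2, 45.7 and 43.0 CPM in the libraries labelled WT, 46.9, 45.6 and 44.6 in Tet2KO, 52.1, 51.3 and 48.2 in Id1KO and 57.4, 54.5 and 59.5 in dKO. WT and Tet2KO overlapped, Id1KO was above both, and dKO was above Id1KO in every library. Its log2 fold change was 0.18 ± 0.046 in Id1KO against WT (edgeR adjusted p 0.0106) and 0.32 ± 0.046 in dKO against Tet2KO (adjusted p 3.16e-05). It was 0.18 ± 0.045 in dKO against Id1KO (adjusted p 0.00847) and 0.36 ± 0.046 in dKO against WT (adjusted p 1.03e-05). The call in Id1KO against WT was lost when Id1KO replicate 1 or WT replicate 3 was left out, at an adjusted p of up to 0.0527. The call in dKO against Id1KO was lost when dKO replicate 3 was left out, at an adjusted p of up to 0.0561. Aurka (ENSMUSG00000027496.15, chromosome 2, 172356190 to 172370535) stood at 45.8, 44.3 and 44.4 CPM in the libraries labelled WT, 45.9, 47.2 and 40.9 in Tet2KO, 53.0, 52.2 and 53.0 in Id1KO and 55.2, 50.3 and 57.9 in dKO. Every Id1KO and dKO library was above every WT and Tet2KO library, and Id1KO and dKO overlapped. Its log2 fold change was 0.23 ± 0.053 in Id1KO against WT (edgeR adjusted p 0.00485) and 0.29 ± 0.054 in dKO against Tet2KO (adjusted p 0.00052).

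Anaphase begins when the anaphase-promoting complex (APC/C), with its activator CDC20 and the ubiquitin-conjugating enzyme UBE2C, marks securin and cyclin B for destruction. Cdc20 (ENSMUSG00000006398.15, chromosome 4, 118432901 to 118437352) stood at 103, 105 and 108 CPM in the libraries labelled WT, 109, 106 and 104 in Tet2KO, 116, 111 and 109 in Id1KO and 121, 111 and 118 in dKO. The WT and Tet2KO libraries overlapped with each other, and the Id1KO and dKO libraries were all above them by a small margin. Cdc20 was not called in Id1KO against WT (0.09 ± 0.035, edgeR adjusted p 0.0885) and rose in dKO against Tet2KO (0.13 ± 0.036, adjusted p 0.00932). The latter call was lost when Tet2KO replicate 3 or dKO replicate 1 was left out, at an adjusted p of up to 0.0605. Ube2c rose in both, by 0.20 ± 0.036 (edgeR adjusted p 0.000597) and 0.21 ± 0.037 (adjusted p 0.000319). Among 17 other genes of the APC/C, 1 was higher and 1 lower in Id1KO against WT and 4 were higher in dKO against Tet2KO, with medians of -0.02 and 0.06. The most abundant of these, Anapc5, stood at -0.02 ± 0.026 and 0.05 ± 0.027 in these comparisons and was called in neither.

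The spindle checkpoint holds the APC/C until chromosomes are attached. Of its 5 genes, Bub1 was called in Id1KO against WT and Bub1, Bub1b, Mad2l1 and Ttk in dKO against Tet2KO. Bub1, a kinase at the kinetochore, rose by 0.22 ± 0.034 on the log2 scale (edgeR adjusted p 0.000125) and 0.22 ± 0.035 (adjusted p 9.91e-05). The pseudokinase gene Bub1b was called in dKO against Tet2KO (0.16 ± 0.027, edgeR adjusted p 0.00027) and missed the threshold in Id1KO against WT (0.08 ± 0.027, adjusted p 0.0517). The call of Mad2l1, part of the inhibitory complex, in dKO against Tet2KO (0.13 ± 0.046) was lost when any 1 of 8 libraries was left out, at an adjusted p of up to 0.319. That of the kinase gene Ttk (0.16 ± 0.051) was lost when Tet2KO replicate 1, Tet2KO replicate 3 or dKO replicate 2 was left out, at an adjusted p of up to 0.132. Bub3 was called in none of the 6 comparisons. None of the 5 was called in Tet2KO against WT, where all had negative log2 fold changes between -0.08 and -0.03.

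The chromosomal passenger complex corrects faulty attachments with the kinase AURKB, its scaffold INCENP and the partners survivin (Birc5) and borealin (Cdca8). Birc5 (ENSMUSG00000017716.15, chromosome 11, 117849251 to 117855743) stood at 66.0, 66.6 and 68.4 CPM in the libraries labelled WT, 65.2, 62.2 and 61.2 in Tet2KO, 70.5, 70.4 and 68.9 in Id1KO and 71.1, 76.2 and 75.8 in dKO. The dKO libraries were highest without overlap and Tet2KO lowest without overlap. Birc5 rose in dKO against Tet2KO by 0.24 ± 0.038 (edgeR adjusted p 7.44e-05) and stood at 0.06 ± 0.037 in Id1KO against WT (adjusted p 0.284). Cdca8 (ENSMUSG00000028873.16, chromosome 4, 124918465 to 124939311) stood at 77.3, 76.7 and 77.9 CPM in the libraries labelled WT, 74.6, 76.8 and 76.7 in Tet2KO, 81.7, 80.9 and 80.3 in Id1KO and 88.7, 85.0 and 86.1 in dKO. Here too dKO was above every other library. Cdca8 was called in dKO against Tet2KO (0.19 ± 0.032, edgeR adjusted p 0.000186) and in dKO against Id1KO (0.10 ± 0.031, adjusted p 0.0337). The latter call was lost when any 1 of 5 libraries was left out, at an adjusted p of up to 0.133. Aurkb was called in both Id1-label comparisons (0.12 ± 0.033 and 0.13 ± 0.034). The first of these calls was lost when Id1KO replicate 2 or WT replicate 2 was left out, at an adjusted p of up to 0.0912, and the second when dKO replicate 1 was left out, at an adjusted p of up to 0.0601. Incenp was called in Id1KO against WT alone of these 2 (0.11 ± 0.035, edgeR adjusted p 0.0422). It was lost when Id1KO replicate 1, Id1KO replicate 2, WT replicate 1 or WT replicate 3 was left out, at an adjusted p of up to 0.215.

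Kinetochores are built on the histone variant CENP-A and bind microtubules through the NDC80 complex, to which NUF2 belongs, and through the motor CENP-E. Cenpa (ENSMUSG00000029177.9, chromosome 5, 30666777 to 30674830) stood at 98.1, 97.96 and 90.7 CPM in the libraries labelled WT, 83.8, 85.7 and 78.5 in Tet2KO, 100.2, 103 and 105 in Id1KO and 98.8, 98.9 and 103 in dKO. Tet2KO was lowest without overlap, and the other 3 groups were close. Cenpa had the largest fall among the 55 genes in Tet2KO against WT, -0.21 ± 0.039 (edgeR adjusted p 0.000279), and in dKO against Tet2KO it rose by 0.28 ± 0.039 (adjusted p 2.66e-05). Cenpe (ENSMUSG00000045328.11, chromosome 3, 135212537 to 135273611) stood at 110.4, 113 and 113 CPM in the libraries labelled WT, 117, 116 and 119 in Tet2KO, 133, 129.99 and 130.2 in Id1KO and 134, 144 and 135 in dKO. All Id1-null libraries were above all others, with Id1KO and dKO not overlapping. The log2 fold change was 0.22 ± 0.03 in Id1KO against WT (edgeR adjusted p 3.25e-05) and 0.23 ± 0.031 in dKO against Tet2KO (adjusted p 1.4e-05).

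Cenpf (ENSMUSG00000026605.14, chromosome 1, 189640606 to 189688086), a large kinetochore and nuclear envelope protein of G2 cells, stood at 102, 90.1 and 96.8 CPM in the libraries labelled WT, 106, 102 and 102 in Tet2KO, 103, 97.6 and 99.98 in Id1KO and 107, 116 and 109 in dKO. The dKO libraries were highest, and WT was spread over 90.1 to 102 CPM. Cenpf was called in dKO against Id1KO (0.14 ± 0.041, edgeR adjusted p 0.0171) and in dKO against WT (0.20 ± 0.041, adjusted p 0.00127). The former call was lost when Id1KO replicate 2 or dKO replicate 2 was left out, at an adjusted p of up to 0.0837. Nuf2 (ENSMUSG00000026683.14, chromosome 1, 169497934 to 169531464) stood at 56.9, 53.7 and 54.4 CPM in the libraries labelled WT, 53.4, 48.2 and 51.001 in Tet2KO, 54.3, 54.0 and 53.6 in Id1KO and 54.5, 60.5 and 57.2 in dKO. WT overlapped with both Id1KO and dKO, dKO was just above Id1KO without overlap, and Tet2KO was below them all. Nuf2 rose in dKO against Tet2KO (0.17 ± 0.046, edgeR adjusted p 0.00848), and this call was lost when Tet2KO replicate 2 or dKO replicate 2 was left out, at an adjusted p of up to 0.0617. Its partner Ndc80 was called in Id1KO against WT (0.18 ± 0.05, edgeR adjusted p 0.016) and missed the threshold in dKO against Tet2KO (0.12 ± 0.051, adjusted p 0.0879). Its call was lost when Id1KO replicate 1, Id1KO replicate 3 or WT replicate 3 was left out, at an adjusted p of up to 0.0827. Among 37 other kinetochore genes, 6 were higher and 1 lower in Id1KO against WT and 15 higher and none lower in dKO against Tet2KO, with medians of 0.05 and 0.12. The most abundant, Hjurp, the CENP-A chaperone, rose by 0.30 ± 0.024 (edgeR adjusted p 2.79e-08) and 0.08 ± 0.024 (0.016).

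Of the 8 mitotic kinesins, 7 were higher in Id1KO against WT, 6 in dKO against Tet2KO and all 8 in dKO against WT. Kif2c (ENSMUSG00000028678.13, chromosome 4, 117159639 to 117182639), a depolymerase that frees wrongly attached microtubules, stood at 45.6, 50.5 and 46.5 CPM in the libraries labelled WT, 50.2, 51.1 and 49.0 in Tet2KO, 58.0, 58.4 and 57.5 in Id1KO and 63.4, 55.7 and 55.9 in dKO. All Id1-null libraries were above all others, and its log2 fold change in Id1KO against WT, 0.29 ± 0.049 (edgeR adjusted p 0.000473), was the largest of the 55. Kif23 (ENSMUSG00000032254.10, chromosome 9, 61915905 to 61946774), the motor of the centralspindlin complex that positions the cleavage furrow, stood at 62.4, 61.9 and 59.1 CPM in the libraries labelled WT, 71.4, 71.6 and 74.4 in Tet2KO, 69.0, 70.4 and 68.7 in Id1KO and 75.1, 76.0 and 78.5 in dKO. WT was lowest without overlap, Id1KO and Tet2KO followed without overlapping each other, and dKO was highest. Kif23 rose in Tet2KO against WT by 0.25 ± 0.036 (edgeR adjusted p 2.37e-05), in Id1KO against WT by 0.18 ± 0.035 (adjusted p 0.00142) and in dKO against Id1KO by 0.14 ± 0.035 (adjusted p 0.00655). It was not called in dKO against Tet2KO (0.08 ± 0.035, edgeR adjusted p 0.108).

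The chromokinesin gene Kif4 (ENSMUSG00000034311.3, chromosome X, 100625737 to 100727214) stood at 75.7, 79.1 and 78.8 CPM in the libraries labelled WT, 73.5, 72.7 and 74.5 in Tet2KO, 84.4, 83.5 and 81.9 in Id1KO and 85.6, 88.5 and 88.2 in dKO. Groups ran from Tet2KO through WT and Id1KO to dKO with no overlap between neighbours. Kif4 rose in Id1KO against WT by 0.10 ± 0.032 (edgeR adjusted p 0.044) and in dKO against Tet2KO by 0.25 ± 0.033 (adjusted p 1.2e-05). The former call was lost when any 1 of 6 libraries was left out, at an adjusted p of up to 0.149. Kif20a (ENSMUSG00000003779.16, chromosome 18), a motor of the central spindle, stood at 92.7, 94.97 and 93.1 CPM in the libraries labelled WT, 91.5, 91.0 and 90.5 in Tet2KO, 103, 98.5 and 100.4 in Id1KO and 111, 109 and 107 in dKO. The order of groups was that of Kif4, again with no overlap. The log2 fold change was 0.10 ± 0.029 in Id1KO against WT and 0.26 ± 0.03 in dKO against Tet2KO. In Id1KO against WT the call was lost when Id1KO replicate 1, WT replicate 1 or WT replicate 3 was left out, at an adjusted p of up to 0.0901. Its exons share 1271 bp with Cdc23, an APC/C gene on the opposite strand, for which 18704 counts were listed over the 12 libraries. Kif11, which pushes the spindle poles apart, rose by 0.17 ± 0.032 and 0.16 ± 0.032 in the 2 Id1-label comparisons (edgeR adjusted p 0.00104 and 0.0012), and Kif20b by 0.20 ± 0.037 and 0.17 ± 0.038 (adjusted p 0.000951 and 0.00205). Kif15, a second motor of spindle bipolarity, was called in dKO against Tet2KO (0.16 ± 0.03) and not in Id1KO against WT (0.05 ± 0.029). Kif18b, which shortens astral microtubules, was called in Id1KO against WT (0.16 ± 0.05) and not in dKO against Tet2KO (0.12 ± 0.051), a call lost when Id1KO replicate 1, Id1KO replicate 2 or WT replicate 2 was left out, at an adjusted p of up to 0.164.

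Of the 9 genes of spindle assembly, 6 were higher in each Id1-label comparison. Hmmr (ENSMUSG00000020330.16, chromosome 11, 40701395 to 40733422), a microtubule-binding protein of the spindle poles, stood at 78.7, 79.2 and 79.4 CPM in the libraries labelled WT, 72.2, 75.1 and 71.6 in Tet2KO, 86.6, 88.7 and 89.4 in Id1KO and 86.5, 92.6 and 89.4 in dKO. Tet2KO was lowest and WT next, with every Id1-null library above both. Hmmr fell in Tet2KO against WT by a log2 fold change of -0.12 ± 0.034 (edgeR adjusted p 0.0115) and rose in dKO against Tet2KO by 0.30 ± 0.034 (adjusted p 2.66e-06). Its fall was not called when Tet2KO replicate 3 was left out, at an adjusted p of up to 0.0729. Prc1 (ENSMUSG00000038943.16, chromosome 7, 80294450 to 80316259), which bundles the microtubules of the central spindle, stood at 106, 106 and 101.4 CPM in the libraries labelled WT, 113, 114 and 107 in Tet2KO, 124, 124 and 128 in Id1KO and 121, 121 and 119.9 in dKO. The order was WT, Tet2KO, dKO and Id1KO, with no overlap between any of them. Prc1 rose in Tet2KO against WT by 0.10 ± 0.031 (edgeR adjusted p 0.0236), in Id1KO against WT by 0.26 ± 0.031 (adjusted p 6.36e-06) and in dKO against Tet2KO by 0.11 ± 0.031 (adjusted p 0.0106). The first of these calls was lost when Tet2KO replicate 1, Tet2KO replicate 2 or WT replicate 3 was left out, at an adjusted p of up to 0.0942, and the last when Tet2KO replicate 3 was left out, at an adjusted p of up to 0.0842.

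Ckap5 (ENSMUSG00000040549.16, chromosome 2, 91526762 to 91620664), a microtubule polymerase used outside mitosis too, stood at 218, 226 and 222 CPM in the libraries labelled WT, 221, 222 and 233 in Tet2KO, 228, 220.2 and 227 in Id1KO and 232, 241 and 235 in dKO. Its groups overlapped except for dKO against WT and Id1KO. Its 1 call among the pairwise comparisons, 0.09 ± 0.029 in dKO against WT (edgeR adjusted p 0.0361), was lost when WT replicate 1, WT replicate 3, dKO replicate 2 or dKO replicate 3 was left out, at an adjusted p of up to 0.104. Tpx2, which activates AURKA on the spindle, was called in both Id1-label comparisons (0.12 ± 0.031 and 0.15 ± 0.031), as were Ckap2l (0.15 ± 0.04 and 0.16 ± 0.04) and Spag5 (0.11 ± 0.037 and 0.19 ± 0.038), a spindle and kinetochore protein. In Id1KO against WT the call of Tpx2 was lost when Id1KO replicate 3 was left out, at an adjusted p of up to 0.0614, that of Ckap2l when Id1KO replicate 1 or WT replicate 2 was left out, at an adjusted p of up to 0.0803, and that of Spag5 when any 1 of 7 libraries was left out, at an adjusted p of up to 0.204. Nusap1 was called in Id1KO against WT (0.16 ± 0.035, edgeR adjusted p 0.00296) and not in dKO against Tet2KO (0.08 ± 0.035, adjusted p 0.11), and Dlgap5 in the reverse manner (0.10 ± 0.044 and 0.21 ± 0.045). Ckap2 was called in neither. Among 38 other spindle and cytokinesis genes, 7 were higher and 2 lower in Id1KO against WT and 12 higher and none lower in dKO against Tet2KO. The most abundant of them, the tubulin gene Tubb5, stood at -0.04 ± 0.024 and -0.02 ± 0.024, while Tubb4b rose most in dKO against Tet2KO, by 0.29 ± 0.029 (edgeR adjusted p 5.19e-07).

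Cytokinesis is represented by anillin, which scaffolds the contractile ring, by the exchange factor ECT2, which activates RhoA at the furrow, and by RACGAP1, the partner of KIF23. Anln (ENSMUSG00000036777.8, chromosome 9, 22332012 to 22389188) stood at 85.2, 86.1 and 84.9 CPM in the libraries labelled WT, 90.5, 90.7 and 90.4 in Tet2KO, 104, 99.8 and 106 in Id1KO and 99.5, 99.9 and 101.4 in dKO. The order was WT, Tet2KO and then the Id1-null labels, where Id1KO and dKO overlapped. Anln rose in Id1KO against WT by 0.28 ± 0.03 (edgeR adjusted p 2.61e-06) and in dKO against Tet2KO by 0.15 ± 0.031 (adjusted p 0.00133). Ect2 (ENSMUSG00000027699.19, chromosome 3, 27097222 to 27153878) stood at 62.2, 61.0 and 62.1 CPM in the libraries labelled WT, 64.5, 67.1 and 65.1 in Tet2KO, 64.7, 62.6 and 65.9 in Id1KO and 69.0, 68.8 and 69.1 in dKO. The dKO libraries were above all others and WT below all others. The call in dKO against Id1KO (0.10 ± 0.034, edgeR adjusted p 0.0495) was lost when any 1 of 11 libraries was left out, at an adjusted p of up to 0.194. Racgap1 (ENSMUSG00000023015.14, chromosome 15, 99620496 to 99651656) stood at 115, 122 and 113 CPM in the libraries labelled WT, 124, 129 and 129 in Tet2KO, 125, 116 and 117 in Id1KO and 129, 130.2 and 127 in dKO. Libraries labelled WT and Id1KO overlapped, as did Tet2KO and dKO, and the highest Id1KO library reached into the range of Tet2KO. It rose in Tet2KO against WT by 0.13 ± 0.035 (edgeR adjusted p 0.00722) and in dKO against Id1KO by 0.11 ± 0.035 (adjusted p 0.0361), the latter call being lost when any 1 of 5 libraries was left out, at an adjusted p of up to 0.15. It stood at 0.03 ± 0.035 and 0.01 ± 0.035 in the Id1-label comparisons.

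Condensin I compacts chromosomes with the ATPases SMC2 and SMC4 and the subunits NCAPD2, NCAPG and NCAPH. Smc4 (ENSMUSG00000034349.14, chromosome 3, 69004738 to 69034623) stood at 350.3, 353 and 338 CPM in the libraries labelled WT, 340.4, 331 and 329 in Tet2KO, 369.8, 369 and 385 in Id1KO and 341, 367 and 354 in dKO. Id1KO was highest without overlap, and dKO overlapped with WT. Smc4 rose in Id1KO against WT by 0.11 ± 0.03 (edgeR adjusted p 0.0178) and in dKO against Tet2KO by 0.09 ± 0.031 (adjusted p 0.0433). The former call was lost when Id1KO replicate 3 or WT replicate 3 was left out, at an adjusted p of up to 0.0854, and the latter when any 1 of 7 libraries was left out, at an adjusted p of up to 0.185. Smc2 rose in these comparisons by 0.16 ± 0.035 and 0.21 ± 0.036 (edgeR adjusted p 0.00441 and 0.000239), Ncapg by 0.25 ± 0.048 and 0.27 ± 0.05 (adjusted p 0.00122 and 0.000417), and Ncaph in the second alone (0.10 ± 0.039 and 0.16 ± 0.04). Ncapd2 was called in none of the 6 comparisons, and a small RNA gene with 68475 counts, Scarna10, lies in its exons on the same strand. Of the 3 condensin II genes tested, 2 were higher in Id1KO against WT and none in dKO against Tet2KO.

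The remaining genes encode chromosome and nuclear proteins of dividing cells, among them the proliferation marker Ki-67. Its gene Mki67, like Kif23 and Ncapd2, had all 6 Tet2-null libraries above the other 6, a pattern of 5.33% of all genes. Mki67 (ENSMUSG00000031004.8, chromosome 7, 135689784 to 135716361), which coats mitotic chromosomes, stood at 939, 923 and 928 CPM in the libraries labelled WT, 1019, 1041 and 1052 in Tet2KO, 946, 929 and 942 in Id1KO and 1049, 1077 and 1069 in dKO. The Tet2KO and dKO libraries were all above those labelled WT and Id1KO, which overlapped. Mki67 rose in Tet2KO against WT by 0.16 ± 0.024 (edgeR adjusted p 4.43e-05) and in dKO against Id1KO by 0.18 ± 0.024 (adjusted p 1.62e-05). It stood at 0.01 ± 0.024 in Id1KO against WT (adjusted p 0.762) and 0.04 ± 0.024 in dKO against Tet2KO (adjusted p 0.276). Top2a (ENSMUSG00000020914.17, chromosome 11, 98992943 to 99024189), which untangles sister chromatids, stood at 721, 749.9 and 741 CPM in the libraries labelled WT, 739, 748 and 733 in Tet2KO, 815, 795 and 831 in Id1KO and 772, 811 and 787 in dKO. It followed the other pattern, with all Id1-null libraries above the rest, and rose by 0.14 ± 0.027 (edgeR adjusted p 0.00117) in Id1KO against WT and 0.09 ± 0.027 (adjusted p 0.0136) in dKO against Tet2KO. The latter call was lost when Tet2KO replicate 3 or dKO replicate 2 was left out, at an adjusted p of up to 0.064.

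Hmgb2 (ENSMUSG00000054717.7, chromosome 8, 57511907 to 57515999) stood at 503, 487 and 483 CPM in the libraries labelled WT, 477, 477 and 469 in Tet2KO, 508, 507 and 512 in Id1KO and 524, 529 and 517 in dKO. The Id1-null libraries were all above the others, by a narrow margin for Id1KO over WT. Hmgb2 was called in dKO against Tet2KO (0.14 ± 0.025, edgeR adjusted p 0.000272) and not in Id1KO against WT (0.05 ± 0.025, adjusted p 0.181). Kpna2, an importin of spindle assembly factors, rose by 0.21 ± 0.026 and 0.25 ± 0.027 in these comparisons (edgeR adjusted p 1.88e-05 and 9.73e-07). Both have near-identical copies elsewhere (Gm4739 for Hmgb2, 99.7% over 633 bp, and Gm10184 for Kpna2, 99.9% over 1968 bp), among which the authors' counting could split reads. With the copies' counts added no call of either gene named here changed. The lamin gene Lmnb1 was called in dKO against Id1KO (0.12 ± 0.031, edgeR adjusted p 0.00863) and in dKO against WT (0.11 ± 0.031), and in neither Id1-label comparison (-0.01 ± 0.031 and 0.05 ± 0.031). The call in dKO against WT was lost when WT replicate 2 was left out, at an adjusted p of up to 0.058.

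**Figure D4:**
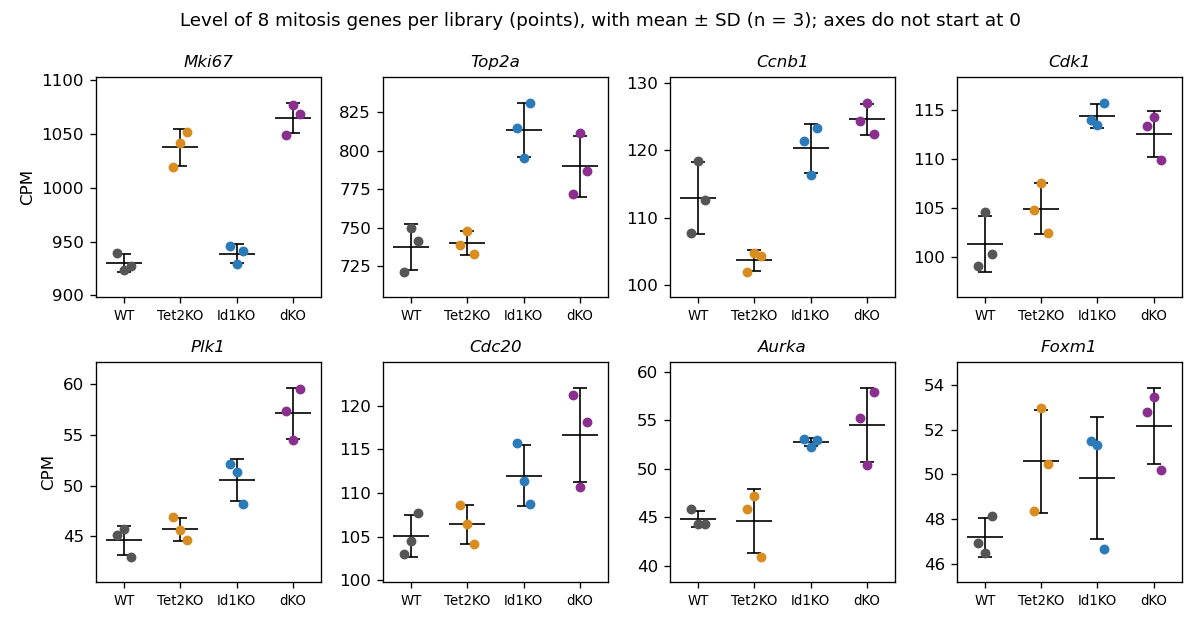
CPM of 8 mitosis genes in every library (points), with the mean and SD of the 3 libraries of each genotype label (bars); the axes do not start at 0. Cdk1, Aurka, Top2a, Plk1 and Cdc20 are higher in all Id1KO and dKO libraries than in all WT and Tet2KO libraries, and Mki67 in all Tet2KO and dKO libraries than in the others.

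Whether the Id1 label went with the same change on both backgrounds was tested by the interaction, the log2 fold change of dKO against Tet2KO minus that of Id1KO against WT. Of the 55 genes, 9 (16.4%) were called, 8 of them with a larger change in the Tet2KO background. Among all genes 14.5% were called (7.46% higher and 7.03% lower), and 20.2% of the 8051 genes at the levels of the 55. The share of the 55 is thus close to the background. Cyclins Ccnb1, Ccnb2 and Ccna2 were among the 8, as were Nuf2, Birc5, Cenpa, Kif20a and Kif4, each of which had its lowest mean in Tet2KO. The 1 gene with a smaller change there was Prc1 (-0.15 ± 0.044, edgeR adjusted p 0.0275). Most of these calls depended on single libraries. The count was 3 without Id1KO replicate 1, Tet2KO replicate 2, WT replicate 3 or dKO replicate 3, it was 4 without WT replicate 2, and it was 5 without Id1KO replicate 2 or 3, Tet2KO replicate 1 or 3, or dKO replicate 2. DESeq2 called 0 of the 55, with 13 at an unadjusted p under 0.05, and called 1342 of all genes.

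Other gene lists were measured in the same libraries. Of 55 S phase genes (licensing, replication and G1/S factors), 4 were higher and 10 lower in Id1KO against WT, with a median log2 fold change of -0.02, while 21 were higher and 2 lower in dKO against Tet2KO (median 0.08). In Tet2KO against WT 2 were higher and 25 lower (median -0.09), where the mitotic genes had a median of 0.00. Among 18 genes of the DREAM and MYB-MuvB complexes and their relatives, which regulate mitotic promoters, 2 were higher and none lower in Id1KO against WT and 3 higher and 2 lower in dKO against Tet2KO, with Myb, the most abundant, at -0.02 ± 0.024 and E2f4 highest at 0.33 ± 0.047 (edgeR adjusted p 3.9e-05). For 20 other genes of mitotic entry the counts were 5 and 0, then 7 and 3. For 16 genes of cohesin and separase they were 4 and 1, then 7 and 0, with separase (Espl1) highest in dKO against Tet2KO at 0.26 ± 0.031. Over all 148 genes of the mitotic lists outside the 55, the medians were 0.04 and 0.07, smaller than the 0.11 and 0.15 of the 55; that gap was not tested.

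**Figure D5:**
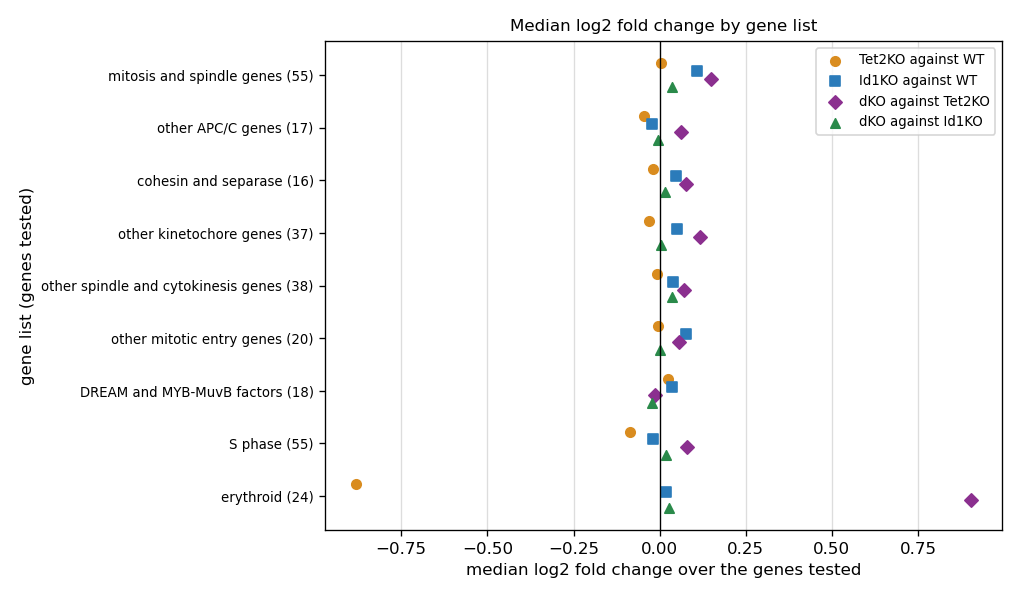
Median log2 fold change over the genes tested of each list (number of genes in brackets) in 4 comparisons, marked by shape and colour. The mitosis and spindle genes lie at 0.11 and 0.15 in the Id1-label comparisons (squares and diamonds), and the erythroid genes at 0.90 in dKO against Tet2KO but 0.02 in Id1KO against WT.

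Levels of marker genes of the cell types in such a sort also differed between labels. The summed level of 25 erythroid genes was 2215 to 2264 CPM in WT, 1316 to 1331 in Tet2KO, 2420 to 2437 in Id1KO and 2231 to 2252 in dKO, and 23 of the 24 tested were called lower in Tet2KO against WT and 23 higher in dKO against Tet2KO. In Id1KO against WT, 2 erythroid genes were higher and none lower (median 0.02). In dKO against WT, 9 erythroid genes were higher and 3 lower (median 0.04). Megakaryocyte genes summed to 368 to 384 CPM in WT, 402 to 411 in Tet2KO, 460.0 to 475 in Id1KO and 375 to 396 in dKO, with 5 of 14 higher and none lower in Id1KO against WT. The 15 neutrophil granule genes in the table summed to 14195 to 14255 CPM in WT and 15664 to 15901 in Tet2KO, against 11954 to 12936 in Id1KO and 11742 to 12936 in dKO. This sum was lower in every Id1-null library, while the single genes went both ways: 2 were higher and 2 lower in Id1KO against WT (median -0.04), and 4 higher and 5 lower in dKO against WT (median 0.13). The sum of 19 stem and multipotent cell genes was 701 to 708 CPM in Id1KO and 672 to 683 in dKO against 735 to 749.8 in WT and 806 to 817 in Tet2KO. Of the 17 tested, 2 were higher and 2 lower in Id1KO against WT, with a positive log2 fold change in 11 (median 0.10), and 3 higher and 6 lower in dKO against WT (median 0.01). Monocyte and dendritic genes ran from 1962 to 1976 CPM in Id1KO to 2494 to 2535 in Tet2KO. Of the 14 tested, 1 was higher and 9 lower in Id1KO against WT (median -0.16), and 6 higher and 2 lower in dKO against WT (median 0.13). Mast cell, basophil and eosinophil genes ran from 343 to 348 in dKO to 515 to 522 in Id1KO. Of these, 4 of 11 were higher and none lower in Id1KO against WT (median 0.09), and 1 higher and 4 lower in dKO against WT (median -0.08). Lymphoid genes ran from 167 to 181 in dKO to 232 to 237 in Tet2KO, with the defining T cell markers Cd3e and Cd3g near 0. Of 15 tested, 1 was lower and none higher in Id1KO against WT (median -0.20). The part of these differences in the levels of the mitotic genes was not tested.

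How reads were assigned limits single genes more than the set. The exons of 10 of the 55 genes overlap those of another gene with at least 120 counts, mostly on the opposite strand, and whether the counting used strand was not given in the sources used here. Stretches of at least 100 bp at 95% identity or more to another tested gene occurred in 22 of the 55. Among the 25 genes with neither, 13 were called in Id1KO against WT, 17 in dKO against Tet2KO and 3 in Tet2KO against WT, with medians of 0.11, 0.16 and 0.02.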

How the data were processed

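Total RNA of sorted donor cells was depleted of ribosomal RNA and sequenced, per the labels. Values are estimated counts (RSEM's expected counts) as deposited, of which 5.06% are not whole. Reads were aligned with STAR and quantified with RSEM on mm10, per the submitters' processing notes, while the annotation and the strand setting were not given in the sources used here. All 55450 gene identifiers matched GENCODE M21, which supplied positions. Library totals were 15706368 to 19959153.

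Counts were rounded to whole numbers, filtered with filterByExpr (minimum count 10, 14346 genes kept), scaled by TMM and fitted in edgeR 4.0.16 (R 4.3.3) with a quasi-likelihood model of 1 mean per genotype over all 12 libraries. Groups came from the genotype labels. Each of 6 contrasts was adjusted by Benjamini-Hochberg over all genes tested, with 0.05 as the threshold, and the SE is the log2 fold change divided by the square root of F. CPM values are TMM-scaled. DESeq2 1.42.0, other scalings, filters, a replicate block, a 1.2-fold test, sums per genotype and fits without each library were the alternatives. Adding the counts of near-identical copies was chosen after seeing the data. Shared sequence was searched with BLAST 2.17.0. Promoter windows are those of RefSeq (GRCm38.p6). The fit was also run on simulated counts with the spread estimated between these libraries. Such counts cannot show whether calls would hold between separate animals.

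The 55 genes, the other lists and the tests were chosen with earlier results of these data known. Values in every library are given for Mki67, Top2a, Ccnb1, Cdk1, Plk1, Cdc20, Aurka and Foxm1, and for the 3 highest and 3 lowest log2 fold changes among the genes called in each contrast. Of each other list at most 3 genes are named: the most abundant, and the highest and lowest among those called in a comparison. Printed promoters come from windows of 300 bases that hold CHR letters, 1 gene per role first.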

Additional observations from a re-analysis of the deposited data

Results flagged for a closer look

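The Id1 label went with different log2 fold changes on the 2 Tet2 backgrounds in 9 of the 55 genes, by edgeR's test of the difference itself (dKO against Tet2KO minus Id1KO against WT). Among kinetochore and passenger genes the difference was 0.20 ± 0.065 (SE) for Nuf2 (adjusted p 0.0429), 0.18 ± 0.053 for Birc5 (adjusted p 0.0249) and 0.18 ± 0.054 for Cenpa (adjusted p 0.0329). Among the cyclins it was 0.17 ± 0.049 for Ccnb1 (adjusted p 0.0225), 0.17 ± 0.049 for Ccnb2 (adjusted p 0.0266) and 0.13 ± 0.044 for Ccna2 (adjusted p 0.0468). The kinesin genes Kif20a and Kif4 differed by 0.16 ± 0.042 (adjusted p 0.0145) and 0.15 ± 0.046 (adjusted p 0.0289). Prc1 differed in the other direction, by -0.15 ± 0.044 (adjusted p 0.0275). Only the call of Kif20a held when each of the 12 libraries was left out in turn. The other calls were lost without any 1 of 3 (Ccnb1), 5 (Ccnb2), 5 (Prc1), 6 (Cenpa), 7 (Birc5), 9 (Kif4), 10 (Ccna2) or 10 (Nuf2) libraries. The share called, 16.4% of the 55, is near the 14.5% of all genes tested. It is below the 20.2% of the 8051 genes with a mean CPM in the range of the 55. It thus does not set these genes apart. DESeq2 called none of the 9 (lowest adjusted p over the 55 genes 0.0531). The summed level of the erythroid list, at 1316 to 1331 CPM in Tet2KO against 2215 to 2264 in WT, was lowest in the same group as the 8 genes with a positive difference, and its part in the result was not tested.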

How the results depend on the processing

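In no result did the direction of a call change under an alternative. The count of the 55 genes called was 0 in each of the 6 comparisons when edgeR's glmTreat tested for a change beyond 1.2-fold. Of all genes that test called 140 (Id1KO against WT) to 769 (Tet2KO against WT). With the libraries of each genotype summed, 0 were called for the Tet2 label (set beside Tet2KO against WT and dKO against Id1KO) and 0 for the Id1 label (set beside dKO against Tet2KO and Id1KO against WT), with medians of 0.022 and 0.13. That fit has 1 residual degree of freedom among 4 sums. Of all genes tested it called 232 for the Tet2 label and 7 for the Id1 label. DESeq2 called 8, 24, 40, 35 and 7 genes in Tet2KO, Id1KO and dKO against WT and dKO against Tet2KO and Id1KO, and 0 for the interaction. Of all 14346 genes it called 3604, 1438, 1868, 2754, 1901 and 1342 in the same order. Leaving out 1 library at a time gave 9 to 15 calls in Tet2KO against WT (medians 0.0021 to 0.021), 21 to 32 in Id1KO against WT (0.11 to 0.13), 38 to 45 in dKO against WT (0.15 to 0.17), 32 to 39 in dKO against Tet2KO (0.13 to 0.15), 5 to 10 in dKO against Id1KO (0.03 to 0.04) and 3 to 10 for the interaction (0.01 to 0.03). Counts were within 1.5 times of those reported under the other scalings, filters and sets of libraries, and without a filter Tet2KO against WT gave 4 higher and 7 lower. The numbers at the end of the titles did not pair libraries: deviations of same-numbered libraries correlated at -0.097 to 0.113 (18 pairs), and others at -0.104 to 0.174 (36 pairs). With the number as a replicate block the counts were 11, 27, 43, 38, 8 and 7. The calls hold for libraries that may be repeats of 1 cell sample per genotype, so they may leave out the spread between animals. At 245 counts or more per gene and library, depth limited the 55 genes little.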
